A study of Mus musculus with 4 samples.

Results

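The immunoglobulin heavy chain locus of the mouse, Igh, was followed in genomic DNA of 4 liver tumours. The locus was taken as all array probes of chromosome 12 that lie between the flanking genes Tmem121 and Zfp386 (mm9, chr12:114431475-117283759). This window spans 2.85 Mb and holds 205 of the 169093 probes placed on chromosomes, of which 159076 lie on autosomes. Its probes are spaced at a median of 9728 bp, against 10184 bp over the autosomes. The members were taken by position, and this choice was made with earlier results of these data known.

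Tumours 1 to 4 came from 4 C57BL/6J mice, which the series describes as lacking Trp53, the p53 tumour suppressor gene, specifically in the liver. The labels give the genotype Trp53-/-, male sex and no treatment, and they name no promoter, Cre line or age. Each tumour DNA carried Cy5 and competed on its own array for the same probes with Cy3-labelled spleen DNA, which the series describes as pooled from 3 sex-matched littermates. The labels give spleen DNA the same genotype and sex, and the labelling protocol names liver instead of spleen as the reference. No dye was swapped, and the tumours form 1 group, so the comparisons are of the locus with the rest of chromosome 12 and with other loci within each array.

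Igh encodes the heavy chain of antibodies. From the Tmem121 end, the mouse locus carries the constant genes, then the joining (J) segments, the diversity (D) segments and a long array of variable (V) segments, proximal ones first. A developing B cell joins a D to a J segment and then a V segment to this DJ unit, and the DNA between the joined segments is deleted from the chromosome. T cells also join D to J segments at Igh at some frequency, while liver cells keep the locus in its germline order. Spleen is rich in mature B cells and also holds many T cells.

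The probes were grouped by distance from the Tmem121 end into 4 parts that follow this order. The constant part runs to 0.23 Mb (13 probes), the D-J part from there to 0.35 Mb (11 probes), the proximal V part to 1.6 Mb (103 probes) and the distal V part to the Zfp386 end (78 probes). These ends are approximate and rest on the known gene order, since no annotation of mm9 was used. The measure is the log2 ratio of tumour over spleen, centred on the autosomal median of each array, and "excess" below is its mean over probes minus the mean of the 7251 probes of chromosome 12 outside the locus. That mean was -0.18, -0.042, -0.12 and -0.18 in tumours 1 to 4.

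Facts of the arrays touch the results. The sex chromosome ratios of tumours 1 and 4 went against the labels: X read -0.82 and Y 2.22 in tumour 1, and X read 0.84 and Y -2.35 in tumour 4, while in tumours 2 and 3 both lay between -0.20 and -0.0061. Values without these tumours are therefore given beside the main results. The array of tumour 2 was the noisiest, with an SD between neighbouring probes of 0.37 (log2), against 0.12 to 0.15 on the others. No probe of the locus was flagged or failed to stand well above background in either channel on any array.

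The oligonucleotides at which the ratio steps up, and those that read highest, are shown here because the results turn on them. The probes are 45 to 60 bases long. They are printed 5′ to 3′ as on the array, all in lower case because no motif is marked, and the files do not give their strand relative to mm9. The first is the last probe before the step (chr12:114664510-114664569), and the next 5 follow it in order along the D-J part, at chr12:114670169-114670228, chr12:114675830-114675888, chr12:114694549-114694601, chr12:114713478-114713534 and chr12:114718970-114719029. The last is the highest probe of the distal V part (chr12:116540368-116540412).
A_67_P07756810: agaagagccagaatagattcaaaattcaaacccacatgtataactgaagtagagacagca
A_67_P07756830: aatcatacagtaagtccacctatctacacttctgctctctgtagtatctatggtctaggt
A_67_P07756836: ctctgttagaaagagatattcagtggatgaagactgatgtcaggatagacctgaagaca
A_67_P07756869: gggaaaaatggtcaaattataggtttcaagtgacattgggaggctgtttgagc
A_67_P07756920: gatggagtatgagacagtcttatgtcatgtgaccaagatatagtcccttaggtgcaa
A_67_P07756935: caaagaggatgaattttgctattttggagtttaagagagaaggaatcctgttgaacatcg
A_67_P07760111: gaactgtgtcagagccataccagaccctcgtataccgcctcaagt

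The heptamer CACAGTG, or CACTGTG on the other strand, is the part of the recombination signal that borders each V, D and J segment. It occurred in 1 of the 205 locus probes (0.488%), a probe of the distal V part, against 1415 of the 159076 autosomal probes (0.890%). The GC content of the locus probes averaged 35.8%, against 36.5% for chromosome 12 outside the locus.

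The excess was not even along the locus. The D-J part stood highest of the 4 parts in each of the 4 tumours, and the distal V part was closer to the rest of the chromosome. In tumour 4 the D-J part was close to the proximal V part, at 0.26 against 0.24. The excess of the D-J part was 0.69, 0.60, 0.42 and 0.26 in tumours 1 to 4, averaging 0.49 ± 0.19 (SD, n = 4), a ratio of 1.41. It lay above 0 in 4 of 4 tumours, highest in tumour 1 and lowest in tumour 4. The excess of the proximal V part was 0.38, 0.38, 0.31 and 0.24, a mean of 0.33 ± 0.065 (SD, n = 4) and a ratio of 1.25. The excess of the distal V part was 0.11, 0.15, 0.14 and 0.098, a mean of 0.12 ± 0.025 (SD, n = 4) and a ratio of 1.09. The V parts were thus above the rest of the chromosome in every tumour, with less spread between tumours than the D-J part.

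The constant part did not share this excess in every tumour. It read 0.0099, 0.22, 0.10 and -0.021 relative to the rest of chromosome 12, averaging 0.078 ± 0.11 (SD, n = 4), with 3 of 4 tumours above 0 (exact p = 0.375 by permuting signs). Its value was highest in tumour 2, the tumour in which the flank beyond Tmem121 was also high: the 66 probes of the 1 Mb before the locus averaged 0.020, 0.24, 0.026 and -6.2e-05 in tumours 1 to 4. Beyond the Zfp386 end, the 89 probes of the next 1 Mb averaged 0.011, -0.030, 0.013 and -0.0085, close to the rest of the chromosome in all 4. The flanking genes themselves held 1 probe each, which averaged -0.13 ± 0.21 (SD, n = 4) at Tmem121, a transmembrane protein gene, and -0.23 ± 0.32 (SD, n = 4) at Zfp386, a zinc finger protein gene.

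The D-J part was compared within each array with the constant part and with the distal V part. Its difference from the proximal V part, which adjoins it, was not tested. The D-J part exceeded the constant part by 0.68, 0.38, 0.31 and 0.28 in tumours 1 to 4, a mean of 0.41 ± 0.18 (SD, n = 4). It exceeded the distal V part by 0.58, 0.45, 0.27 and 0.16, a mean of 0.37 ± 0.19 (SD, n = 4). Along the V segments the log2 ratio fell by 0.21, 0.19, 0.12 and 0.12 per Mb away from the D-J part, a mean slope of -0.16 ± 0.048 per Mb (SD, n = 4). All 3 quantities had 1 sign in 4 of 4 tumours.

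A two-sided exact permutation of signs among the tumours (n = 4) gave p = 0.13 for the locus, for the D-J and both V parts and for these 3 quantities, which is the lowest p possible with 16 sign patterns and cannot pass 0.05 (adjusted p = 0.141 over 9 tests). Within the slide of tumours 1 and 2 the D-J excess averaged 0.64 and that of the whole locus 0.28, and within the slide of tumours 3 and 4 they averaged 0.34 and 0.20. Without tumours 1 and 4 the D-J excess averaged 0.51, the constant part 0.16, the proximal V part 0.34 and the distal V part 0.14. Without tumour 2 the constant part averaged 0.030.

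The size of the excess depended on the baseline. Without the subtraction of chromosome 12 the locus read 0.087, 0.25, 0.12 and -0.0089 in tumours 1 to 4 and averaged 0.11 ± 0.11 (SD, n = 4; exact permutation of signs, p = 0.25). The D-J part then averaged 0.36 and the proximal V part 0.20, both above 0 in 4 of 4 tumours, while the constant part averaged -0.053 and the distal V part -0.0073.

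**Figure D1:**
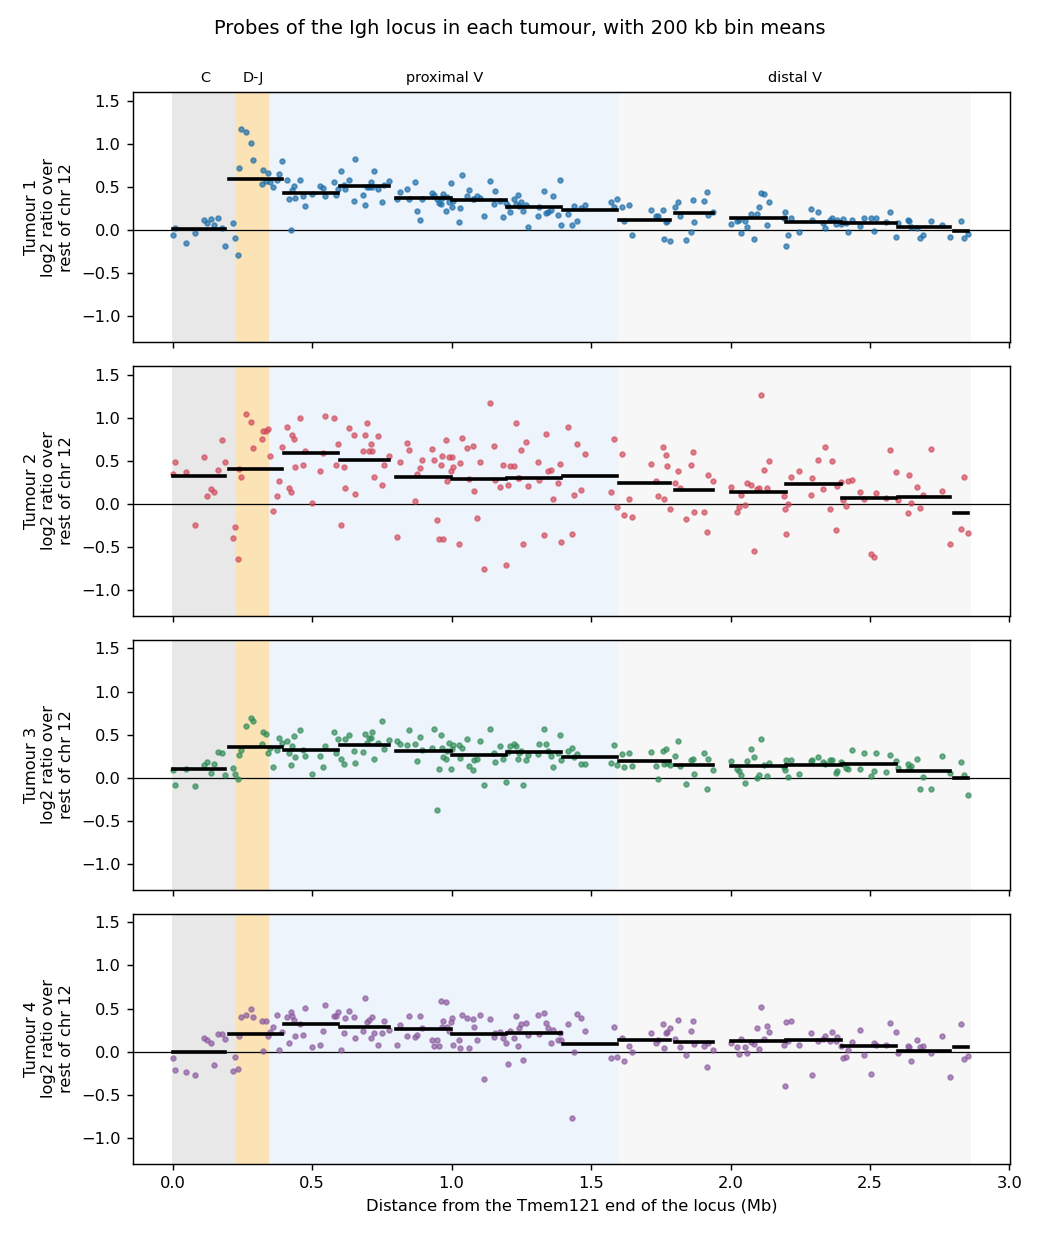
Each point is 1 probe of the Igh locus, plotted by its distance from the Tmem121 end (Mb) and its log2 ratio over the rest of chromosome 12, with 1 panel per tumour. Black lines are 200 kb bin means and shading marks the constant (C), D-J, proximal V and distal V parts. The points of the D-J part reach 1.17 in tumour 1 and the bin means fall towards the Zfp386 end in all 4 panels.

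The step lay between the same pair of neighbouring probes in tumours 1, 3 and 4. Probe A_67_P07756810, at 0.233 Mb from the Tmem121 end, read -0.29, -0.64, -0.015 and -0.20 over the rest of chromosome 12 in tumours 1 to 4. The next probe, A_67_P07756830 at 0.239 Mb, read 0.71, 0.41, 0.26 and 0.19. Every tumour was thus below the chromosome at the first probe and above it at the next. Since the first probe falls in the D-J part by its distance, that part was also averaged without it, a choice made after seeing the data: the other 10 probes read 0.79, 0.72, 0.46 and 0.30, a mean of 0.57 ± 0.23 (SD, n = 4) and a ratio of 1.48.

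The probes just beyond the step were among the highest of the locus. A_67_P07756869, at 0.263 Mb, read 1.13, 1.04, 0.61 and 0.42 in tumours 1 to 4, a mean of 0.80 ± 0.34 (SD, n = 4). A_67_P07756920, at 0.282 Mb, read 1.01, 0.95, 0.70 and 0.49, a mean of 0.79 ± 0.24 (SD, n = 4). In both, tumours 1 and 2 were higher than tumours 3 and 4. A_67_P07756935, at 0.287 Mb, read 0.81, 0.65, 0.65 and 0.41, a mean of 0.63 ± 0.17 (SD, n = 4). A_67_P07756836, between the step and these probes, read 1.17, 0.32, 0.32 and 0.40, so tumour 1 stood apart there. Its mean over chromosome 12 was -0.047 under another background correction (normexp), against 0.54 in the same limma fit without it.

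Single high and low probes were also scattered along the V segments. Of the 5 probes with the highest means, the other 2 were A_67_P07758391 in the proximal V part, at 1.14 Mb (0.56, 1.18, 0.57 and 0.38 in tumours 1 to 4), and A_67_P07760111 in the distal V part, at 2.11 Mb (0.42, 1.26, 0.45 and 0.52). Tumour 2 was the highest at both. Of the 5 probes with the lowest means, 4 lay in the V parts and averaged between -0.25 (A_67_P07758357) and -0.17 (A_67_P07760676), and the fifth was the probe before the step. At each of these 4 the tumours took both signs, with SDs of 0.23 to 0.49.

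Most single probes of the locus also lay above the chromosome. Of the 205 probes, 139 lay above the rest of chromosome 12 in 4 of 4 tumours, while 15% of all autosomal probes lay above the mean of their chromosome in all 4. These 139 comprised 10 of 11 D-J probes, 86 of 103 proximal V probes, 38 of 78 distal V probes and 5 of 13 constant probes. In tumour 1 all 103 proximal V probes were above the rest of the chromosome, and in tumour 2, the noisiest array, 88 were.

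No single probe passed limma with Benjamini-Hochberg adjustment over the 159059 autosomal probes tested (0% of probes called), a fit that also recovered no shifted probe in simulated arrays. At an unadjusted p under 0.05, 116 of the 205 locus probes were higher than their chromosome, against 6.22% of all autosomal probes. They were 10 D-J, 82 proximal V, 21 distal V and 3 constant probes. With normexp, 78 locus probes passed, among 18176 probes called in all.

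The 200 kb bins averaged out this noise. The bins of the locus are numbered from the Tmem121 end, and 14 of its 15 bins held the 5 probes required for the test. Relative to the rest of chromosome 12, bin 1, which holds constant gene probes, read 0.012, 0.32, 0.11 and 0.0010 in tumours 1 to 4. Bin 2, at 0.2 to 0.39 Mb, is wider than the D-J part. Its 17 probes are the 11 D-J probes with constant and proximal V probes on either side. Bin 2 read 0.59, 0.40, 0.36 and 0.21, a mean of 0.39 ± 0.16 (SD, n = 4). Bin 2 was thus above bin 1 in each tumour, by the least in tumour 2.

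The highest bins followed in the proximal V part. Bin 3 read 0.42, 0.59, 0.32 and 0.32, and bin 4, at 0.6 to 0.78 Mb, read 0.51, 0.51, 0.38 and 0.29, the highest mean of all (0.43 ± 0.11, SD, n = 4; a ratio of 1.34). Bin 2 was higher than bin 4 in tumour 1 only, and the means of bins 2, 3 and 4 differed by less than the SD between tumours. From bin 5 (0.31) to bin 8 (0.22) the means declined, and bins 9 to 12 averaged between 0.13 and 0.17. Bin 11 varied least, at 0.13, 0.14, 0.14 and 0.12 in tumours 1 to 4.

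The last bins lay closest to the rest of the chromosome. Bin 13 averaged 0.094 ± 0.049 and bin 14 averaged 0.052 ± 0.037 (SD, n = 4 each). Bin 15, with 3 probes and no test, averaged -0.014 ± 0.069 (SD, n = 4) with both signs. Bins 1 to 14 were above 0 in 4 of 4 tumours. Over these 14 bins the profiles of pairs of tumours correlated with Pearson's r of 0.75 to 0.94, a description in which the tumours share the probes and possibly the spleen DNA.

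**Figure D2:**
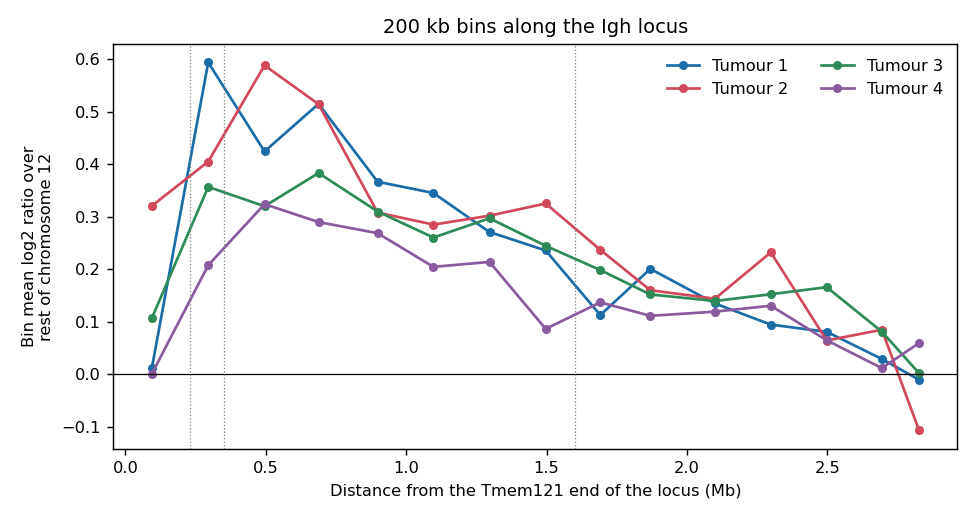
Mean log2 ratio over the rest of chromosome 12 of each 200 kb bin (y) against distance from the Tmem121 end in Mb (x), with 1 line per tumour and dotted lines at the ends of the constant, D-J and proximal V parts. The bin means of the 4 tumours are highest between bins 2 and 4 and lie between -0.11 and 0.060 in the last bin.

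All 11223 autosomal bins with at least 5 probes were then tested with limma against the median of their own chromosome, with Benjamini-Hochberg adjustment over all bins. The 5 bins that passed in the higher direction (0.0446% of all bins) were bins 3 to 7 of the Igh locus, the D-J-proximal stretch of the V segments. Their means over the chromosome median were 0.40, 0.41, 0.30, 0.26 and 0.26, each above the median in 4 of 4 tumours, with adjusted p-values of 0.0392, 0.0273, 0.0273, 0.0458 and 0.0273. Bin 2, which mixes the D-J probes with constant and proximal V probes, had the third highest mean of all autosomal bins (0.38). It had a larger spread between tumours, and its adjusted p in limma was 0.187.

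No bin outside the locus passed limma's adjusted threshold, where the smallest adjusted p was 0.393, although 1363 of them had an unadjusted p under 0.05. This count depended on the processing: with normexp 19 bins passed, of which 5 lay in the locus. Without the subtraction of the chromosome 956 passed, of which 4 did. The locus bins that passed also changed. With normexp bin 8 passed and bin 7 did not (adjusted p in limma 0.0155 and 0.0863). Without the subtraction bin 2 passed (0.0207), and bins 6 and 7 did not (0.0547 and 0.0710). Bins 3 to 5 passed in both. The highest mean of any bin outside the locus was 0.33, below bins 2, 3 and 4 of the locus. Bins 4, 3 and 2, in this order, had the 3 highest means of all. The median over the 14 locus bins was 0.18, and the median over all bins was -0.0093. Above the chromosome median in 4 of 4 tumours lay 13 of the 14 locus bins, against 8.54% of all bins, and at an unadjusted p under 0.05 in the higher direction lay 12 of 14, against 3.24%.

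Leaving out tumours changed these calls. Without tumour 1, 3 or 4 no bin of the locus passed limma, with smallest adjusted p-values of 0.144, 0.134 and 0.127, while 11, 11 and 12 of the 14 locus bins kept an unadjusted p under 0.05. Without tumour 2, the noisiest array, 5 passed. With the slide as a random block 5 passed. Without tumours 1 and 4 together 7 locus bins passed among 225 bins in all. In that fit of 2 arrays, bins 1 to 13 of the locus shared the same standard error (0.060). Its calls thus followed the size of the mean, not the agreement between tumours.

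**Figure D3:**
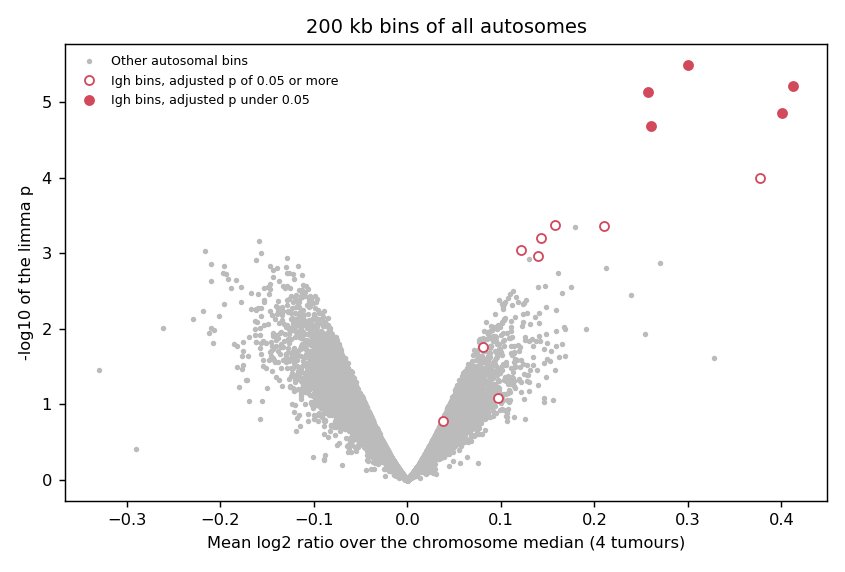
Each point is a 200 kb autosomal bin, with its mean log2 ratio over the chromosome median in the 4 tumours (x) and -log10 of its unadjusted limma p (y). Bins of the Igh locus are red circles, filled where the adjusted p was under 0.05. The 5 filled circles have means of 0.26 to 0.41, and the highest mean among the grey bins is 0.33.

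Each array was also divided into segments of constant ratio by penalised least squares, which uses no grouping of the locus, and a segment of at least 5 probes with a centred mean of 0.2 or more was called gained. In tumours 1, 3 and 4 a boundary fell between the same pair of probes, A_67_P07756810 and A_67_P07756830. In tumour 2 none fell there. Its segment began 1.14 Mb before the locus and took in the 1 Mb flank that was also high in that tumour.

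In tumour 1 the locus was divided into successively lower steps. The first ran from 0.239 to 0.287 Mb (5 probes, all D-J) and lay 0.97 above the rest of chromosome 12. The next ran from 0.320 to 1.17 Mb (77 probes) and lay 0.44 above it, and a further one from 1.18 to 2.20 Mb (70 probes) lay 0.20 above it. The following segment began at 2.20 Mb and ran past the locus to 6.82 Mb (372 probes), with a mean 0.013 above the rest. Inside the locus, bins 12 and 13 of tumour 1 still read 0.095 and 0.081.

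Tumour 3 had 1 step fewer. Its first segment ran from 0.239 to 1.45 Mb (108 probes), 0.33 above the rest of the chromosome, and its second from 1.46 to 2.67 Mb (75 probes), 0.16 above. In tumour 4 the raised segment ran from 0.239 to 1.42 Mb (105 probes), 0.26 above the rest of the chromosome. The following segment ran past the locus to 6.82 Mb (419 probes) and averaged 0.030 above the rest, while the distal V part of tumour 4 read 0.098. In tumour 2 a single segment covered the locus up to 2.36 Mb (254 probes with the flank), 0.31 above the rest.

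Gained segments held 82 of the 205 locus probes (40%) in tumour 1, 177 (86.3%) in tumour 2, 108 (52.7%) in tumour 3 and 0 in tumour 4. The share of all autosomal probes in gained segments was 4.24%, 4.45%, 0.0962% and 3.27% in tumours 1 to 4. The segment of tumour 4 was not called because its centred mean was 0.082, on a chromosome whose mean outside the locus was -0.18. Over the D-J part the calls numbered 10 of 11 probes in tumour 1, 11 in tumour 2, 10 in tumour 3 and 0 in tumour 4. Most of the D-J part was thus in a gained segment in 3 tumours, while this held in 0 tumours at a threshold of 0.3, where the 5-probe segment of tumour 1 (centred mean 0.79) is still past it, and in 1 tumour with normexp.

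A ratio cannot tell more DNA in the tumour from less DNA in the spleen, so the channels were also read apart. In DNA of whole tissue, moreover, the share of cells that carry a change and the number of copies changed in each cannot be told apart. Each level is the mean log2 processed signal of a part minus that of chromosome 12 outside the locus in the same channel. Probes differ in brightness for reasons both channels share, so a level of a single channel is a description, and no test was made.

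The D-J part read 0.33, 0.44, 0.19 and 0.27 in the tumour channel and -0.36, -0.16, -0.22 and 0.0071 in the spleen channel of arrays 1 to 4. The tumour level was thus above, and the spleen level below or near, that of the chromosome. The proximal V part read 0.049, 0.088, -0.019 and 0.098 in the tumour channel and -0.33, -0.29, -0.33 and -0.14 in the spleen channel. Averaged over this part, the spleen channel lay below the chromosome on all 4 arrays. That it also lay below the tumour channel restates the excess of the ratio there.

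The outer parts were set apart less by channel. The distal V part averaged 0.21 ± 0.043 in the tumour channel and 0.084 ± 0.041 in the spleen channel, and the constant part averaged 0.12 ± 0.081 in the tumour channel and 0.037 ± 0.054 in the spleen channel (SD, n = 4 each). Along the V segments the tumour channel changed by -0.0071, -0.0093, 0.094 and 0.011 per Mb and the spleen channel by 0.20, 0.18, 0.22 and 0.13 per Mb away from the D-J part. The log2 ratio is the tumour channel minus the spleen channel, so the larger slope of the spleen channel on every array restates the fall of the ratio.

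The levels depended on how brightness was treated. Set against autosomal probes of like GC content, an alternative added after seeing the data, the D-J part read 0.14, 0.19, 0.011 and 0.088 in the tumour channel and -0.52, -0.28, -0.40 and -0.16 in the spleen channel. Its tumour level was then nearer to the chromosome and its spleen level farther below it. The proximal V part then read 0.13, 0.20, 0.065 and 0.19 in the tumour channel and -0.25, -0.22, -0.25 and -0.061 in the spleen channel. Its bins were uneven in both channels. Bins 3 and 8 averaged 1.0 and 0.80 in the tumour channel and 0.58 and 0.56 in the spleen channel. Bins 4 to 7 averaged 0.13, -0.012, -0.14 and -0.32 in the tumour channel. In the spleen channel these 4 bins averaged -0.30, -0.36, -0.43 and -0.61. The constant part then averaged -0.077 in the tumour channel and -0.12 in the spleen channel, below the chromosome in both. This direction depended on the average used: the median over its probes gave 0.22 in the tumour channel and 0.039 in the spleen channel. The slopes per Mb were then 0.055, 0.065, 0.15 and 0.075 in the tumour channel and 0.26, 0.24, 0.27 and 0.19 in the spleen channel. Single autosomal probes still varied with an SD of 0.59 to 0.93 in the tumour channel and 0.57 to 0.77 in the spleen channel.

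**Figure D4:**
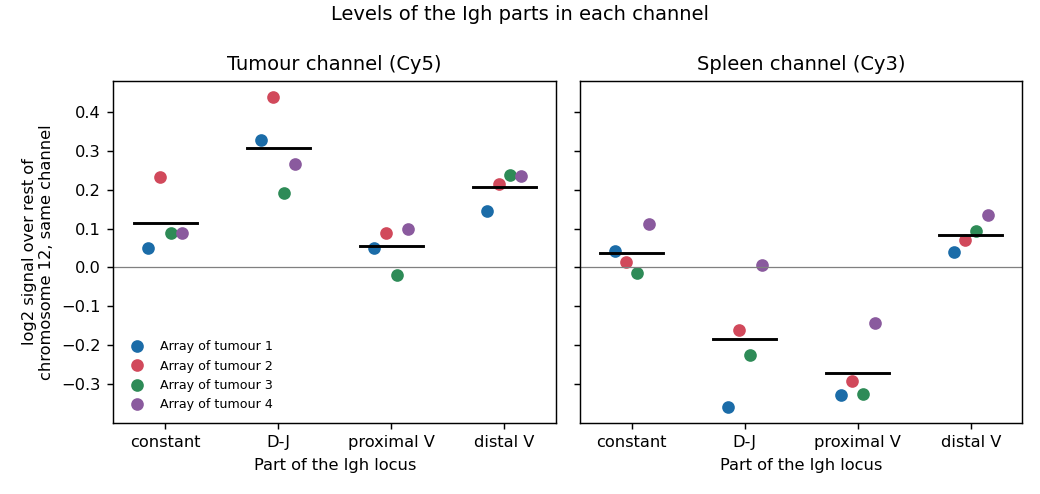
Mean log2 processed signal of each part of the Igh locus over the rest of chromosome 12 in the same channel (y), for the tumour channel (left panel) and the spleen channel (right panel). Points are the 4 arrays and bars their means. For the D-J part the means are 0.31 in the tumour channel and -0.18 in the spleen channel.

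Other antigen receptor loci, which B or T cells rearrange by the same enzymes, were compared with Igh on the same arrays. The windows between flanking array genes held 179 probes at Igk (kappa light chain, chromosome 6), 17 at Igl (lambda light chain, chromosome 16), 129 at Tra and Trd (T cell receptor alpha and delta, chromosome 14), 97 at Trb (beta, chromosome 6) and 18 at Trg (gamma, chromosome 13). Their mean excesses over the rest of their chromosomes lay between -0.028 and 0.042. Igk, the nearest, read 0.13, -0.029, 0.011 and 0.058 in tumours 1 to 4. Each of these windows was read as a single mean, so an excess over only a part of it was not examined.

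The excess of the whole Igh locus was 0.27, 0.29, 0.24 and 0.17 in tumours 1 to 4. It was larger than the mean excess of these 5 loci by 0.24, 0.29, 0.23 and 0.18, averaging 0.24 ± 0.046 (SD, n = 4), for which the exact permutation of signs gave p = 0.13, adjusted to 0.141. Igh was the highest of the 6 loci in each of the 4 tumours, by the least in tumour 4. Without tumours 1 and 4 the mean difference was 0.26. Without the subtraction of the chromosomes it was 0.12 ± 0.12 (SD, n = 4; exact permutation of signs, p = 0.25).

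**Figure D5:**
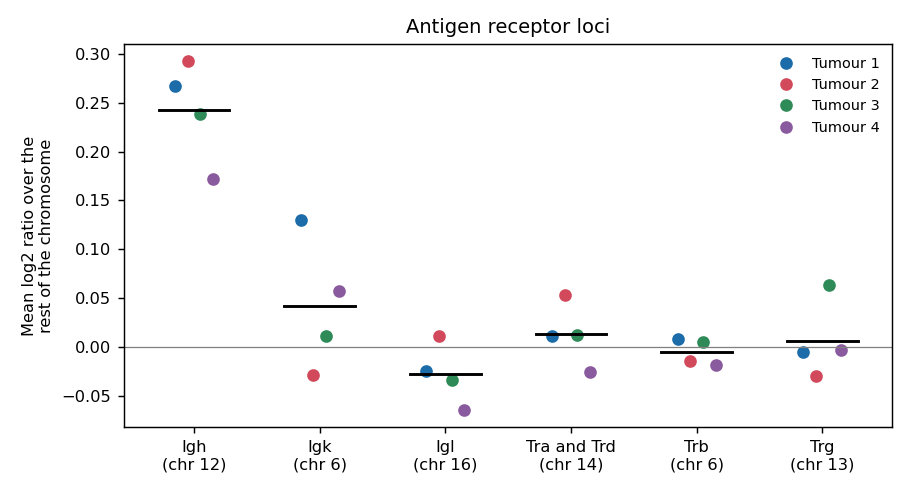
Mean log2 ratio of 6 antigen receptor loci over the rest of their chromosome (y), with 1 point per tumour and a bar at the mean of 4. The points of Igh lie between 0.17 and 0.29, and those of the other loci between -0.064 and 0.13.

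The array names 201 of the 205 locus probes by 11 GenBank transcripts. None of these was found in the mouse RefSeq gene table of assembly GRCm38.p6, so no V, D or J gene was assigned to them. AK136471 was the name of 128 probes from 0.081 to 1.65 Mb, from the constant part to the start of the distal V part, and these averaged 0.32 ± 0.072 (SD, n = 4). The names farther on were lower: BC088837 (18 probes) averaged 0.17 ± 0.030, BC108384 (7 probes) 0.090 ± 0.027, BC031703 (13 probes) 0.16 ± 0.028 and BC029188 (8 probes) 0.16 ± 0.058 (SD, n = 4 each). Each of these was above the rest of the chromosome in all 4 tumours.

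Nearest the Zfp386 end, AK007918 (17 probes) averaged 0.092 ± 0.048 and AY182512 (4 probes) 0.071 ± 0.098 (SD, n = 4 each). The remaining names stood on 1 or 2 probes: BC094065 averaged 0.30 ± 0.11, BC111469 0.14 ± 0.11, M13788 0.060 ± 0.058 and AJ833584 -0.20 ± 0.23 (SD, n = 4 each). AJ833584, at 2.79 Mb, took both signs among the tumours. The 4 probes without a name averaged -0.0033 ± 0.15 (SD, n = 4).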

How the data were processed

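DNA of 4 liver tumours was hybridised with spleen DNA on 2-colour Agilent arrays (1 group, 4 arrays on 2 slides). The deposited intensities, processed per channel, came from Agilent Feature Extraction 12.0.1.1 per the file headers, with probe positions on mm9 (12.0.0 per the submitters' processing notes). They had been corrected for background and spatial trend and scaled by a linear dye factor, per the file headers. The deposited log10 ratio served as a check, and the processed intensities gave the same value to within 0.001 at 99.7% or more of the spots. The log2 ratio of processed red over green was computed here, flagged spots (81 to 258 per array, 0 in the locus) were left out, replicate spots were averaged, and the autosomal median of each array was set to 0. No loess or quantile step was applied.

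Means over probes were tested with exact permutation of signs, and bins and probes with limma 3.58.1 in R 4.3.3 (lmFit, eBayes) and Benjamini-Hochberg adjustment over all autosomal features. These fits were tested on simulated data, in which the bin fit recovered nearly all shifted bins and the probe fit recovered no shifted probe. The simulated noise was Gaussian and independent, with the same SD for all features of an array. It therefore does not show how the fits behave on the real arrays. Segments used a penalty of 3 times the logarithm of the number of probes times the noise variance. The members, the part ends and the named probes (the 5 highest and 5 lowest means, every array name, all bins, and the probes at the step) were chosen with earlier results of these data known. The tests treat the spleen DNA as fixed, and nothing in the labels says whether the 4 arrays shared 1 pool. The sex chromosome ratios took opposite signs on the arrays of tumours 1 and 4 (X -0.82 and 0.84, Y 2.22 and -2.35). Whether the spleen DNA differed between arrays was not tested. The number of arrays limits the precision.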

Additional observations from a re-analysis of the deposited data

Results flagged for a closer look

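The groups of 4 tumour values numbered 58: parts, bins, named probes, array names, flanks and antigen receptor loci. Of these, 5 held a tumour whose gap to the nearest other exceeded Dixon's critical share of the range. Chance flags about 1 in 20 independent groups, but many of these groups share probes. In bin 13 tumour 3 was highest, at 0.17, against 0.064 to 0.081 in the others. At A_67_P07756836 tumour 1 read 1.17, against 0.32 to 0.40. At A_67_P07760111 tumour 2 read 1.26, against 0.42 to 0.52. In the 1 Mb beyond the Tmem121 end tumour 2 read 0.24, against -6.2e-05 to 0.026. Over the 2 probes of BC111469 tumour 4 was lowest, at -0.022, against 0.18 to 0.20. All are log2 ratios over the rest of chromosome 12.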

How the results depend on the processing

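No paired analysis was possible because the tumours form 1 group. Of the recomputed main values and counts, 165 were kept, 13 moved and 2 turned their direction, with causes not tested. Values tested by permuting signs counted as kept whenever their direction held, whatever their size. Values without a test had to move by under 1 SD, and counts by at most 1.5 times. The locus excess, for example, counted as kept though it fell from 0.24 to 0.11 without the subtraction of chromosome 12. Without the subtraction of chromosome 12 the constant part averaged -0.053, the distal V part -0.0073, and bins 1, 13 and 14 -0.021, -0.037 and -0.079. With normexp, A_67_P07756836 averaged -0.047 over its chromosome, and A_67_P07758918 averaged between -0.36 and 0.0051 when each tumour was left out, with 0.0051 without tumour 4. Against probes of like GC, the tumour channel read 0.20 over the locus and 0.11 over the D-J part, and the spleen channel -0.046 and -0.34. The median over probes put the spleen channel at -0.19 over the locus and -0.11 over the D-J part.

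The 3 tumours with a gained segment over most of the D-J part became 0 at a call threshold of 0.3 and 1 with normexp. The 5 locus bins passing limma became 8 with 100 kb bins and 3 with 400 kb bins, and between 0 and 5 when each tumour was left out in turn. The 0 locus probes passing limma became 78 with normexp (of 18176 probes called in all) and 14 without tumours 1 and 4 (of 1981). Left out in turn, the tumours gave a D-J excess of 0.43 to 0.57, a locus excess of 0.23 to 0.27 and a constant part of 0.030 to 0.11. The limits are 4 tumours, 11 D-J probes and part ends set without an annotation.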
